A study of Rattus norvegicus with 14 samples.

Results

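The genes described here encode plasma proteins that hepatocytes secrete in the acute phase response, in complement and in blood coagulation, together with a few genes of endotoxin sensing and interleukin-6 (IL-6) signalling that act on them. Of 41 listed genes, 36 were measured on an array probe that the platform annotation ties to exactly 1 gene symbol, out of 14506 genes measured in that way, and each of the 36 had a single such probe. F9, C5, Cfb, Itih2 and Saa4 were not analysed here. The list groups genes by function, and it was drawn up with earlier results of these data known. Extract rats were lean female Zucker rats of genotype fa/+, which carry 1 copy of the leptin receptor mutation and stay lean, aged about 15 weeks, whose standard diet held a rosemary extract with 40% carnosic acid for 64 days. Control rats had the same strain, genotype, sex and age and ate the standard diet alone for the same time. Liver RNA of 7 extract rats and 7 control rats was hybridised to 1 whole-transcript array per rat. The sample labels give the extract as 0.05% of the diet by weight and the series title gives 0.5%, and which is right was not settled here.

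The acute phase response is the change in plasma protein synthesis by the liver after infection or injury. Cytokines of the IL-6 type act through STAT3, and IL-1 through C/EBP and NF-kappaB, to raise positive acute phase proteins, while negative ones such as fetuin-A decline. In rats the strongly inducible proteins include alpha-2-macroglobulin and alpha-1-acid glycoprotein, whereas C-reactive protein circulates at a high level without stimulation. Hepatocytes also make most complement components and clotting factors.

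Values are log2 RMA values, so a difference of 1 is a doubling of signal, and each fold is extract minus control with the standard error (SE) of limma's fit across all genes. A gene is said to rise or fall where its p-value, Benjamini-Hochberg adjusted over the 14506 genes, was under 0.05. Any 2 arrays had a Pearson correlation of 0.984 to 0.997 over the genes, and each array's median gene lay at 6.00 to 6.18. The number of arrays limits the precision. Probes differ in how brightly they bind, so a level here is the signal of a probe and gives no order of transcript abundance between genes. In whole liver, fewer cells of a type and less RNA per cell cannot be told apart.

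Of the 36 measured genes, 3 differed between extract and control rats past the threshold. Serpina3l and Serpina3c, which encode serine protease inhibitors, rose by 0.29 and 0.25 on the log2 scale, and Orm1, which encodes alpha-1-acid glycoprotein, fell by 0.71. These are 3 of 36 measured genes, or 8.33%, against 3.15% of all genes in limma's test. The 2 that rose stand against 2.00% of all genes called higher, and the 1 that fell against 1.15% called lower. At an unadjusted p under 0.05, limma counted 9 of the 36 (25.0%), 5 with a positive and 4 with a negative fold, against 14.8% of all genes. The median log2 fold of the 36 was -0.01 with 17 positive and 19 negative, and that of all genes was -0.00088. In 22 of the 36 (61.1%) the log2 fold was smaller than 0.1 in either direction, as in 59.2% of all genes. Of the 33 genes that did not pass, 20 had a 95% confidence interval that lay wholly within 0.3 log2 units of no difference.

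**Figure D1:**
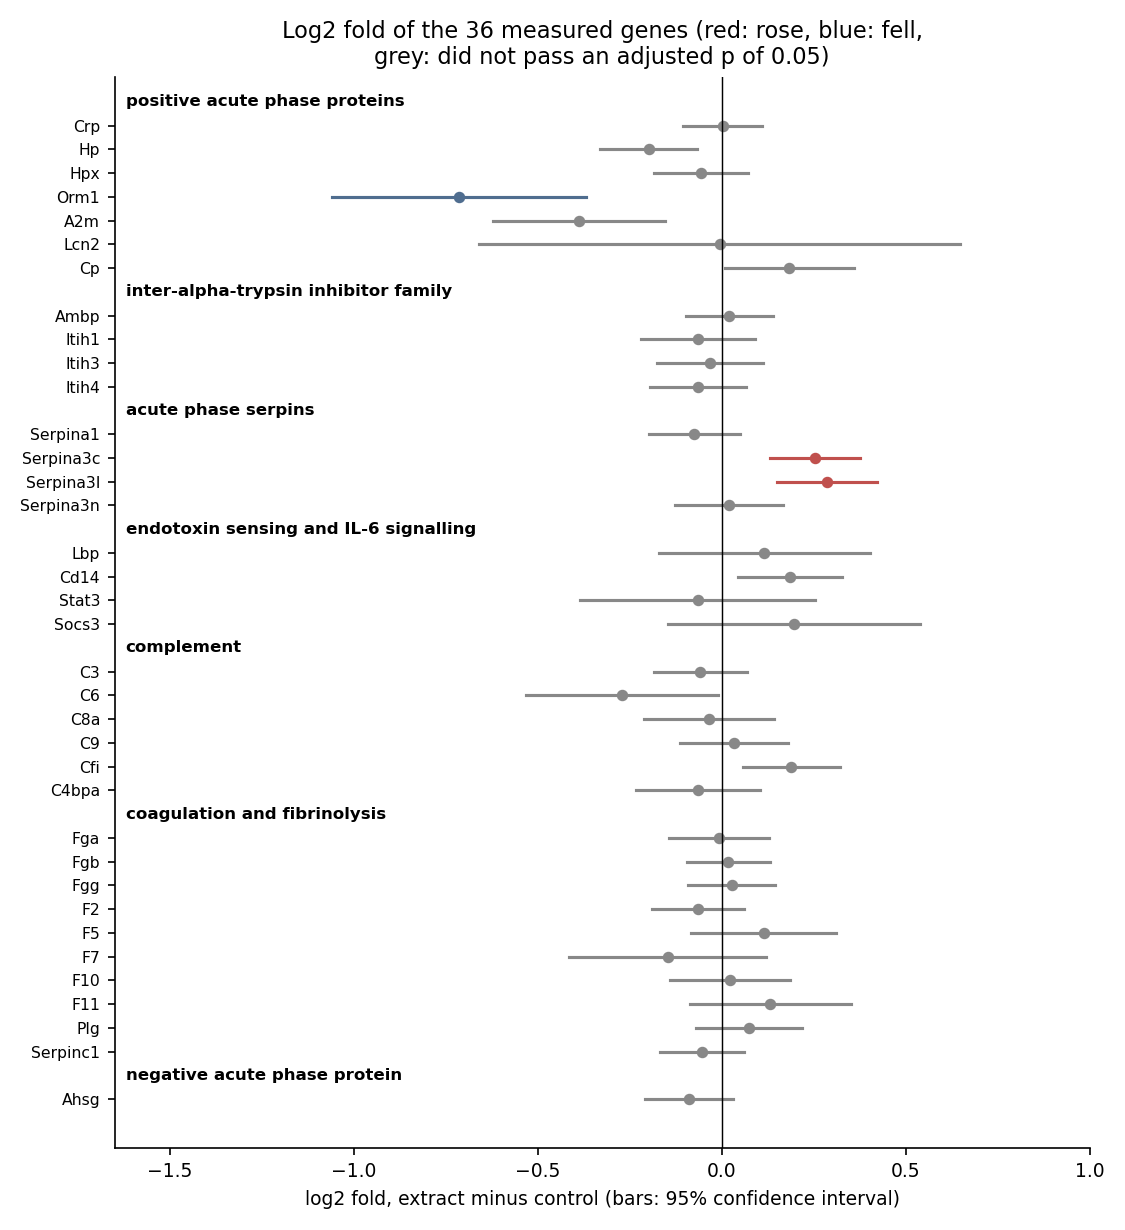
Log2 folds (extract minus control, x axis) of the 36 measured genes in 7 functional groups, with 95% confidence intervals from limma's fit (7 extract rats, 7 control rats). Serpina3c and Serpina3l lie right of 0 in red, Orm1 lies left of 0 in blue, and the grey genes did not pass an adjusted p of 0.05.

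Among the 7 positive acute phase proteins, Orm1 fell, none rose and 6 did not pass. Orm1 binds basic drugs and steroids in plasma and is one of the inducible acute phase genes of the rat. Its values in extract rats 1 to 7 were 10.17, 9.88, 9.85, 10.37, 10.81, 10.02 and 10.13. In control rats 1 to 7 they were 11.15, 11.34, 11.23, 10.64, 10.33, 10.59 and 10.94. All 7 extract rats lay below the control mean and 5 lay below every control rat, while extract rats 4 and 5 overlapped the control range. Orm1 averaged 10.17 ± 0.33 in extract rats and 10.89 ± 0.38 in control rats (SD, n = 7 each), which gave a log2 fold of -0.71 ± 0.16 SE, or 0.609 times the control signal (limma adjusted p = 0.0204). The call did not survive an exact permutation test (adjusted p = 0.13) or the loss of extract rat 2 (0.052), extract rat 3 (0.050) or control rat 3 (0.051), with folds of -0.67, -0.66 and -0.66 in those fits.

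The promoter of Orm1 is shown because this gene had the largest fold of the 36. It is the RefSeq window of 250 bases before and 50 bases after the gene's start in GRCr8, chr5:81788259-81788558, plus strand, 5′ to 3′, with a match to the C/EBP motif TTGCNNAA (read on the other strand) in capitals, beginning 123 bases before the start.
Orm1: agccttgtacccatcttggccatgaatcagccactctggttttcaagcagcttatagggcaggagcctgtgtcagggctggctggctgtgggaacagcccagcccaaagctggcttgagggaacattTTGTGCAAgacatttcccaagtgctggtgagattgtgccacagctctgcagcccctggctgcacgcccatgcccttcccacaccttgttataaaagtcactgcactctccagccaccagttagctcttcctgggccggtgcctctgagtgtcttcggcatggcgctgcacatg

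Hp, which encodes the haemoglobin scavenger haptoglobin, ranged between 12.52 and 12.70 in extract rats (median 12.59) and between 12.67 and 13.01 in control rats (median 12.76). Of the extract rats, 6 lay below every control rat and rat 4 overlapped the lowest control. The log2 fold of Hp was -0.20 ± 0.063 SE (limma adjusted p = 0.107), and it passed when arrays were weighted by quality (adjusted p = 0.040). A2m, which encodes the protease trap alpha-2-macroglobulin, had a mean probe signal of 4.47, below the signal of the median gene (6.09). Its values were 4.09 to 4.68 in extract rats (median 4.21) and 4.42 to 5.03 in control rats (median 4.69). Extract rats 4 and 7 overlapped the control range. The log2 fold of A2m was -0.39 ± 0.11 SE (limma adjusted p = 0.070), and it passed without extract rat 7 (0.021) and with array weights (0.0303).

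Crp, which encodes C-reactive protein, differed least of the positive acute phase proteins, with 12.63 to 12.80 in extract rats (median 12.73) and 12.67 to 12.77 in control rats (median 12.72). The groups overlapped almost wholly, and the 95% confidence interval of the log2 fold of Crp ran between -0.11 and 0.11. Lcn2 encodes lipocalin 2, a siderophore-binding protein that is strongly inducible in liver. It was the most variable of the 36, with 6.39 to 7.67 in extract rats (median 6.73) and 6.21 to 8.63 in control rats (median 6.58). Control rat 2, at 8.63, lay above all other rats, and the log2 fold of Lcn2 was -0.01 ± 0.31 SE with all rats and 0.28 without control rat 2 (limma adjusted p = 0.64). The ferroxidase gene Cp had a log2 fold of 0.18 ± 0.083 SE (adjusted p = 0.307), and the heme scavenger gene Hpx one of -0.06 ± 0.061 SE (adjusted p = 0.746).

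The 4 genes listed here as acute phase serpins include both genes that rose. Serpina3c encodes kallikrein-binding protein, which in rat liver depends on growth hormone and declines in inflammation, and Serpina3l is a close relative next to it on chromosome 6. Serpina3n, the next gene along, is the member of this rat cluster known to be induced in inflammation. In extract rats 1 to 7, Serpina3l had 11.23, 11.46, 11.43, 11.15, 11.38, 11.38 and 11.52. Its control values were 11.06, 11.11, 11.14, 11.11, 11.09, 10.98 and 11.05 in rats 1 to 7. Every extract rat lay above every control rat, the closest being extract rat 4 at 11.15 and control rat 3 at 11.14. Serpina3l averaged 11.36 ± 0.13 in extract rats and 11.08 ± 0.05 in control rats (SD, n = 7 each), which gave a log2 fold of 0.29 ± 0.065 SE or 1.22-fold, with a 95% confidence interval between 1.11-fold and 1.34-fold (limma adjusted p = 0.0185).

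Serpina3c had 12.73, 12.73, 12.72, 12.68, 12.76 and 12.75 in extract rats 2 to 7, and 12.56 in extract rat 1. Its control values were 12.54, 12.44, 12.43, 12.50, 12.48, 12.47 and 12.29 in rats 1 to 7. The groups did not overlap, although extract rat 1 and control rat 1 nearly met. Serpina3c averaged 12.70 ± 0.07 in extract rats and 12.45 ± 0.08 in control rats (SD, n = 7 each), which gave a log2 fold of 0.25 ± 0.058 SE or 1.19-fold (limma adjusted p = 0.0207). Serpina3l and Serpina3c were the 2 of 36 genes (5.56%) without overlap between groups, against 1.54% of all genes. Both kept their call in the exact permutation test (adjusted p = 0.0377 each). That test gives every gene without overlap its smallest p, so this restates the lack of overlap. How fully the array separates these paralogues was not tested.

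Serpina3n ranged between 12.21 and 12.54 in extract rats (median 12.30) and between 12.11 and 12.50 in control rats (median 12.29). The ranges overlapped almost wholly, with a log2 fold of 0.02 ± 0.070 SE and a 95% confidence interval between -0.13 and 0.17. Serpina1, which encodes alpha-1-antitrypsin, had a log2 fold of -0.07 ± 0.059 SE (limma adjusted p = 0.624). The folds of Serpina3l and Serpina3n were not tested against each other.

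The promoters of Serpina3l and Serpina3n are set side by side because the genes are neighbours with unlike folds. Both are RefSeq windows of 250 bases before and 50 after the start in GRCr8, plus strand, 5′ to 3′, at chr6:129062956-129063255 for Serpina3l and chr6:129088142-129088441 for Serpina3n. Capitals mark a match to the STAT motif TTCNNNGAA.
Serpina3l: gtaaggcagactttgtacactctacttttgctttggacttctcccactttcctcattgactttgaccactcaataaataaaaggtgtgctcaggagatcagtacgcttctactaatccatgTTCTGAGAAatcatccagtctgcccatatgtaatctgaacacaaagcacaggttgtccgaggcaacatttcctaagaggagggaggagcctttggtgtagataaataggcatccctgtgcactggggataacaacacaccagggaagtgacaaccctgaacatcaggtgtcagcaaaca
Serpina3n: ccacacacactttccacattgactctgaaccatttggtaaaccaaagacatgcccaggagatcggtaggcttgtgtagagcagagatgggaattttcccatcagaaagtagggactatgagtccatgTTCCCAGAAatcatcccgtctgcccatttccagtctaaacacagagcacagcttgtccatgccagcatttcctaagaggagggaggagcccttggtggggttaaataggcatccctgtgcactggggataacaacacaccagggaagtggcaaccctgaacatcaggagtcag

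The 2 windows were identical at 70.0% of 310 aligned columns, and the longest identical run was 48 bases. The STAT match begins 129 bases before the start in Serpina3l, where it reads TTCTGAGAA, and 123 bases before the start in Serpina3n, where it reads TTCCCAGAA. In Serpina3n the same letters overlap a match to the IL-6 responsive motif CTGGGAA on the other strand, and the Serpina3l window holds none. Among the 31 measured genes with a promoter in the RefSeq table, TTCNNNGAA occurred on either strand in 6 (19.4%), against 8.87% of all 33469 promoters. CTGGGAA occurred in 9 (29.0%), against 11.3% of all, and TTGCNNAA, a C/EBP motif, in 13 (41.9%), against 10.6%. The HNF1 motif, searched in the same way, was found only in Plg (3.23%), against 0.335% of all promoters. A gene of the list counted where any of its promoters matched, while the share of all is over single promoters, so the shares differ in unit. These are counts of letters in a fixed window and not of bound sites.

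**Figure D2:**
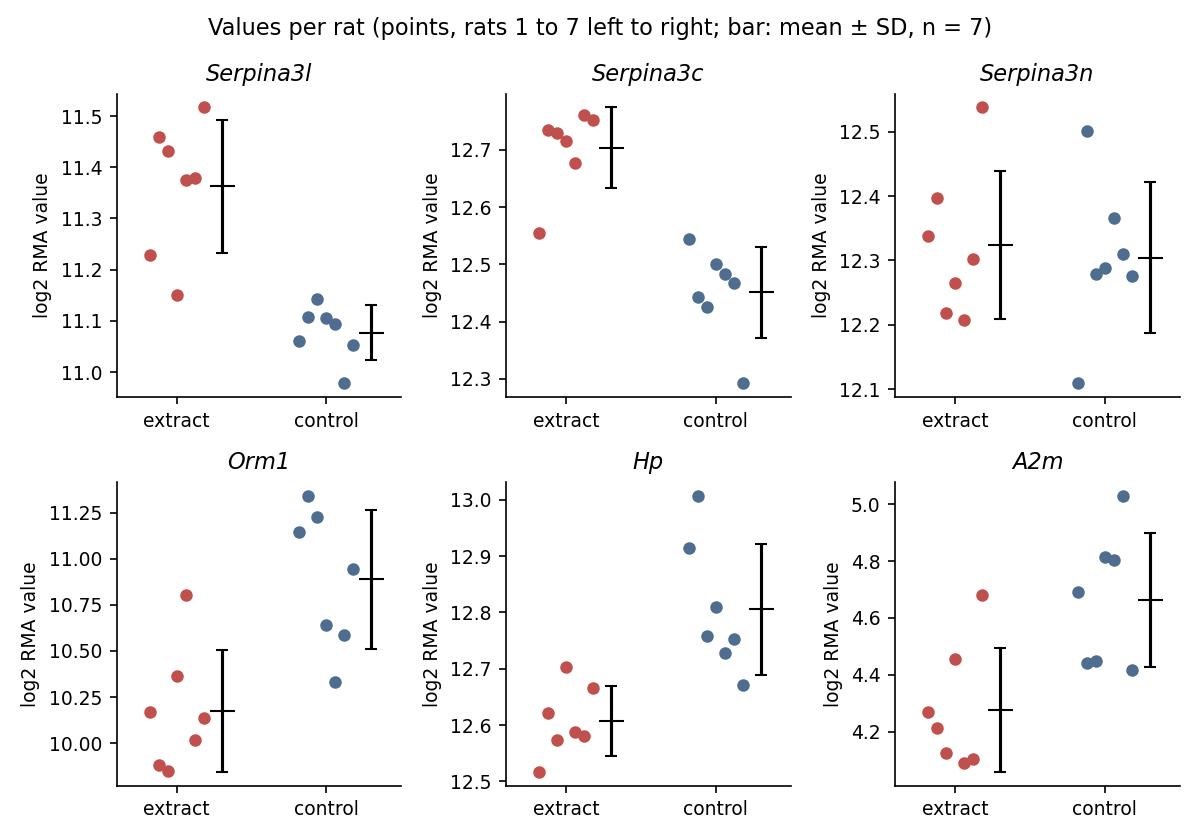
Log2 RMA values (y axis, a separate scale per gene) of Serpina3l, Serpina3c, Serpina3n, Orm1, Hp and A2m in 7 extract rats (left, red) and 7 control rats (right, blue), with bars for mean ± SD. The groups are apart in Serpina3l and Serpina3c, overlap almost wholly in Serpina3n and overlap in part in Orm1, Hp and A2m.

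None of the 4 genes of the inter-alpha-trypsin inhibitor family passed in limma's test, and 0 had an unadjusted p under 0.05. Ambp encodes the precursor of alpha-1-microglobulin and bikunin, the small inhibitor chain, and Itih1, Itih3 and Itih4 encode heavy chains or related proteins that bind hyaluronan or respond to IL-6. Itih4, which had the smallest p of the family, lay between 12.71 and 12.98 in extract rats (median 12.82) and between 12.81 and 13.05 in control rats (median 12.87). The ranges overlapped in most rats, with a log2 fold of -0.07 ± 0.062 SE (limma adjusted p = 0.702). The log2 folds of the 4 genes ran between -0.07 and 0.02.

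Of the 4 genes of endotoxin sensing and IL-6 signalling, none passed in limma's test and 1, Cd14, had an unadjusted p under 0.05. Cd14 encodes the co-receptor that hands lipopolysaccharide to the TLR4 complex and is expressed by macrophages as well as hepatocytes. Its values were 10.23 to 10.47 in extract rats (median 10.33) and 9.96 to 10.30 in control rats (median 10.17). All 7 extract rats lay above the control mean, but the ranges overlapped, and the log2 fold of Cd14 was 0.19 ± 0.067 SE (limma adjusted p = 0.172). Lbp, which encodes the plasma protein that delivers lipopolysaccharide to CD14, had a log2 fold of 0.12 ± 0.14 SE. Stat3, the transcription factor of the IL-6 pathway, had one of -0.07 ± 0.15 SE, and its feedback inhibitor Socs3 one of 0.20 ± 0.16 SE, and the 95% confidence interval of each of these 3 genes reached beyond 0.3 in 1 direction.

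Among 6 complement genes none passed in limma's test, and 2, Cfi and C6, had an unadjusted p under 0.05. Cfi encodes factor I, the protease that inactivates C3b and C4b. It ranged between 11.42 and 11.61 in extract rats (median 11.52) and between 11.16 and 11.48 in control rats (median 11.35). Of the extract rats, 6 lay above every control rat and all 7 above the control mean, and extract rat 1 overlapped the upper controls. The log2 fold of Cfi was 0.19 ± 0.062 SE (limma adjusted p = 0.125).

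The membrane attack complex is assembled from C5b, C6, C7, C8 and C9, of which C6, C8a and C9 were measured. C6 had the widest difference of the 3, with 10.48 ± 0.23 in extract rats and 10.75 ± 0.29 in control rats (SD, n = 7 each), and its log2 fold was -0.27 ± 0.12 SE (limma adjusted p = 0.314). C8a and C9 had log2 folds of -0.04 and 0.03. C3, the protein on which all complement pathways converge, had 13.29 ± 0.07 in extract rats and 13.35 ± 0.10 in control rats (SD, n = 7 each). The 95% confidence interval of the log2 fold of C3 ran between -0.19 and 0.07. C4bpa, which encodes a chain of the inhibitor C4b-binding protein, had a log2 fold of -0.06.

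No gene of coagulation and fibrinolysis passed in limma's test among the 10 measured, and 0 had an unadjusted p under 0.05. Their log2 folds ran between -0.15 and 0.13 with a median of 0.02. The 3 chains of fibrinogen, the precursor of the fibrin clot, are encoded side by side and had log2 folds of -0.01 for Fga, 0.02 for Fgb and 0.03 for Fgg. The 95% confidence interval of Fgb, for example, ran between -0.09 and 0.13. F11, which encodes factor XI of the intrinsic pathway, had the smallest p. Its values were 9.45 to 10.04 in extract rats (median 9.72) and 9.24 to 9.85 in control rats (median 9.71). Overlap was wide, and the log2 fold of F11 was 0.13 ± 0.10 SE (limma adjusted p = 0.630).

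Genes of vitamin K-dependent factors gave log2 folds of -0.06 for F2 (prothrombin), -0.15 for F7, which starts the extrinsic pathway, and 0.02 for F10, at which both pathways meet. F5, the cofactor of activated factor X, had a log2 fold of 0.11, Plg (plasminogen, the precursor of the clot-dissolving enzyme) one of 0.07 and Serpinc1 (antithrombin) one of -0.05. Ahsg encodes fetuin-A, a negative acute phase protein. Its values were 13.16 to 13.41 in extract rats (median 13.30) and 13.28 to 13.50 in control rats (median 13.37). The ranges overlapped and 6 of 7 extract rats lay below the control mean, with a log2 fold of -0.09 ± 0.057 SE (limma adjusted p = 0.519).

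Most of these genes lay near the top of the array's scale. A mean of at least 12 was reached by 21 of the 36 (58.3%), against 227 of 14506 genes (1.56%), and 4 of the 36 reached 13. The highest value of any of the 36 in a rat was 13.5, and the highest of any gene was 13.8. The 21 bright genes of the list had a median within-group SD of 0.087 and a largest log2 fold of 0.25 in either direction, that of Serpina3c. All 227 genes at that level had a median within-group SD of 0.11 and a largest log2 fold of 0.84, and 4.85% of them were called. Of the 21 bright genes of the list, 1 was called (4.76%). At a mean of 10 to 12, 2 of 9 genes of the list (22.2%) and 7.85% of all genes were called. The 15 genes of the list with a lower probe signal had a median SE of 0.11, against 0.061 for the 21 bright ones, so that smaller folds could be called among bright genes. Signal near saturation can make true folds appear smaller, and how far it did so in these bright genes was not tested.

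**Figure D3:**
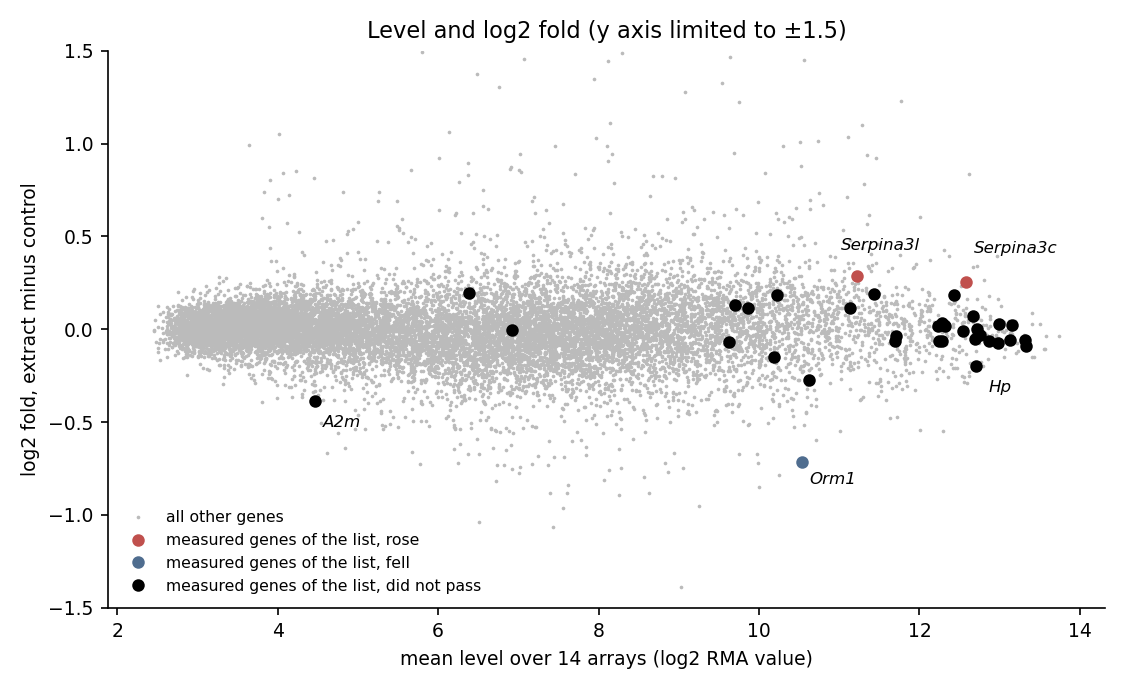
Mean log2 RMA value over 14 arrays (x axis) against log2 fold, extract minus control (y axis, limited to 1.5 in either direction, which leaves out 17 genes), for all genes in grey and the 36 measured genes as large points. Most of the 36 lie at the bright end, where folds of all genes are spread less widely than at 8 to 12.

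Rats of both groups differed in the level of these genes as a whole. Extract rat 7 and control rat 2 each lay above the 14-array mean in 31 of 36 genes. The median deviation from the gene mean over the 36 was 0.16 in extract rat 7 and 0.15 in control rat 2. Over the 1178 other genes with a mean of at least 10, it was 0.064 in extract rat 7 and 0.011 in control rat 2. Extract rat 7 was the highest of its group in 25 genes and control rat 2 in 21. At the low end, extract rat 5 had a median deviation of -0.10 and was lowest of its group in 16 genes, and control rat 1 had -0.08 and was lowest in 17. Over the 1178 other genes the median deviation was 0.051 in extract rat 5 and 0.012 in control rat 1.

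**Figure D4:**
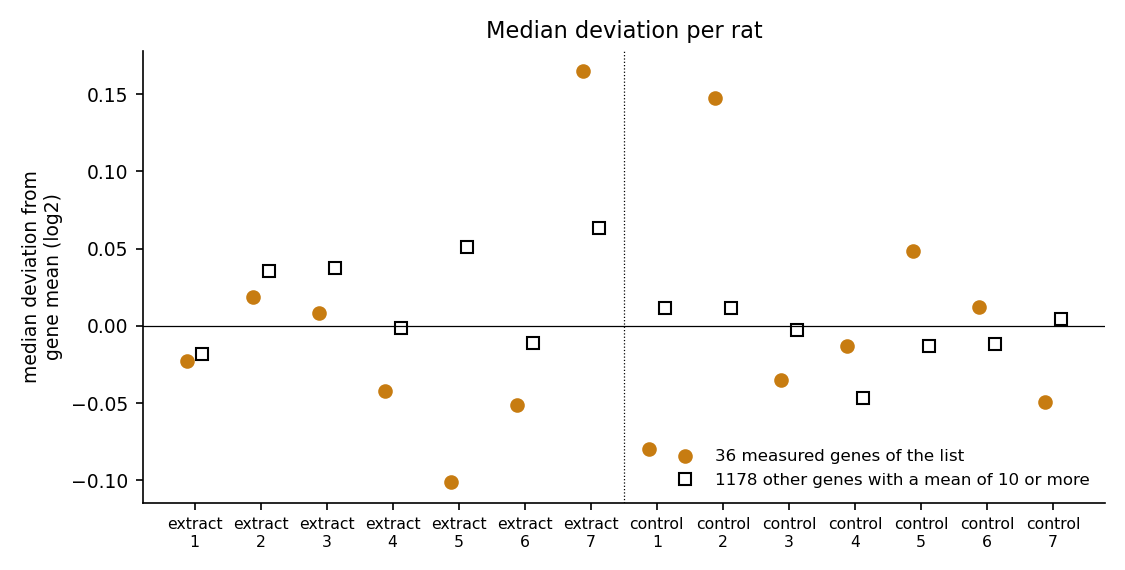
Median deviation from the gene mean over 14 arrays (y axis, log2) in each of 7 extract rats (left) and 7 control rats (right), for the 36 measured genes (filled circles) and for 1178 other genes with a mean of at least 10 (open squares). Extract rat 7 and control rat 2 stand highest for the 36 genes, at 0.16 and 0.15.

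Co-variation was examined within each group for the fibrinogen chains and for Orm1, A2m and Lcn2, 12 pairs in all over 7 rats each. By exact permutation, none of the 12 passed after adjustment by Pearson's r (4 at an unadjusted p under 0.05) or by Spearman's rho (2). Closest was Fga with Fgb in control rats, with r = 0.975 (exact p = 0.00456, adjusted p = 0.055) and rho = 0.857 (exact p = 0.0238, adjusted p = 0.14), and r was 0.982 without the 2 rats farthest from the median of Fga. In extract rats the same pair had r = 0.750 (exact p = 0.038, adjusted p = 0.11), and r was 0.29 without the 2 farthest rats, so that it rested on them. Orm1 with A2m had r = -0.01 in extract rats (exact p = 0.98, adjusted p = 0.98) and r = -0.76 in control rats (exact p = 0.057, adjusted p = 0.11). In control rats Orm1 with Lcn2 had r = 0.74 (exact p = 0.033, adjusted p = 0.11) and rho = 0.857 (exact p = 0.0238, adjusted p = 0.14). Without the 2 control rats farthest from the median of Orm1, r of that pair was 0.57. In extract rats it was -0.32 (exact p = 0.51, adjusted p = 0.61). A2m with Lcn2 had r = 0.26 in extract rats and -0.47 in control rats.

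Of 115 other genes of the same pathways that were measured, out of 133 listed, 3 rose, 4 fell and 108 did not pass, with a median log2 fold of -0.02. Over all genes 2.00% were called higher and 1.15% lower. Among 26 other complement genes, the 2 that fell encode recognition proteins of the lectin pathway. Fcna, ficolin A, had 7.95 ± 0.13 in extract rats and 8.39 ± 0.16 in control rats (SD, n = 7 each), which gave a log2 fold of -0.44 ± 0.080 SE (limma adjusted p = 0.00393). Colec11, collectin 11, had 8.01 ± 0.14 in extract rats and 8.37 ± 0.12 in control rats (SD, n = 7 each), which gave a log2 fold of -0.36 ± 0.075 SE (limma adjusted p = 0.0119). In both genes every extract rat lay below every control rat.

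Among 26 other genes of coagulation and fibrinolysis, 3 rose, against 2.00% of all genes called higher. Klkb1 encodes prekallikrein, a zymogen of the contact pathway that factor XIIa activates, and had 11.64 ± 0.12 in extract rats and 11.28 ± 0.10 in control rats (SD, n = 7 each), without overlap. Its log2 fold was 0.36 ± 0.069 SE (limma adjusted p = 0.00619). Pros1, which encodes the anticoagulant cofactor protein S, rose by 0.29 ± 0.073 SE (limma adjusted p = 0.0366), and F13b, a subunit of the clot-stabilising factor XIII, by 0.32 ± 0.082 SE (limma adjusted p = 0.043). In Pros1 and F13b, 6 of 7 extract rats lay above every control rat, but both calls were lost in the exact permutation test (adjusted p = 0.078 for Pros1 and 0.067 for F13b). Without 1 array the call of Pros1 was lost in 9 of 14 fits (extract rats 1, 2, 3, 6 and 7, control rats 2, 3, 4 and 7; adjusted p up to 0.089), and that of F13b in 11 of 14, all except those without extract rat 1, control rat 1 or control rat 6 (adjusted p up to 0.10). The call of Klkb1 was kept in all 14.

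Of 19 other acute phase genes, Nnmt, a nicotinamide methyltransferase, fell by 0.48 ± 0.11 SE (limma adjusted p = 0.0210). Its call was lost in the exact permutation test (adjusted p = 0.114) and without extract rat 1 (0.051) or extract rat 3 (0.052). None of 14 other negative acute phase genes passed (0 at an unadjusted p under 0.05), the smallest p being that of Ttr, the thyroid hormone carrier transthyretin, at a log2 fold of -0.11 (limma adjusted p = 0.396). Among 21 genes of IL-6 and C/EBP signalling, Il1b, which encodes the cytokine that acts beside IL-6 in the acute phase response, had 6.65 ± 0.30 in extract rats and 7.40 ± 0.34 in control rats (SD, n = 7 each), a fold of -0.74 on the log2 scale (limma adjusted p = 0.00882, exact permutation adjusted p = 0.0888). None of 9 liver-enriched transcription factors passed (2 at an unadjusted p under 0.05), Foxa3 coming closest with a log2 fold of -0.30 (limma adjusted p = 0.232).

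Markers of liver cell types were read beside these results. Of 14 hepatocyte markers 0 passed, with a median log2 fold of 0.01 (limma, 2 at an unadjusted p under 0.05). All 13 measured markers of Kupffer cells and macrophages had a negative fold, with a median of -0.26. Of the 13, 2 fell, against 1.15% of all genes, and 11 had an unadjusted p under 0.05, against 14.8% of all genes. The 2 that fell were Marco, a scavenger receptor, by 0.73 (limma adjusted p = 0.00586), and Vsig4, a complement receptor, by 0.51 (limma adjusted p = 0.0243; 0.054 without extract rat 1 and 0.062 without extract rat 2). The call of Vsig4 was also lost in the exact permutation test (adjusted p = 0.0567) and with every probe tested (0.054). The summed signal of the 13 lay between 5602 and 7279 in extract rats and between 7352 and 9263 in control rats. Of 11 neutrophil and monocyte markers 2 had an unadjusted p under 0.05 and 1 fell, Itgam, by 0.54 (limma adjusted p = 0.00619). Marco and Itgam had mean probe signals of 5.78 and 4.96, below the signal of the median gene (6.09). Of 10 stellate cell markers 4 had an unadjusted p under 0.05 and 1 fell, Pdgfrb, by 0.37 (limma adjusted p = 0.0415). That call was lost in the exact permutation test (adjusted p = 0.122) and in 11 of 14 fits without 1 array (adjusted p up to 0.087), all except those without extract rat 6, control rat 1 or control rat 4. None of 7 endothelial, 6 cholangiocyte and 8 B and T cell markers passed in limma's test, with 2, 1 and 1 at an unadjusted p under 0.05. Folds were negative in all 7 endothelial (median -0.16) and 8 of 10 stellate cell markers (median -0.21). They were negative in 8 of 11 neutrophil and monocyte, 6 of 8 B and T cell and 1 of 6 cholangiocyte markers. The summed signal of the stellate cell markers lay between 1198 and 1610 in extract rats and between 1612 and 1914 in control rats. In the remaining marker lists the summed ranges overlapped. Mean probe signal was below that of the median gene in 8 of 11 neutrophil and monocyte markers and in all 6 cholangiocyte markers. It was also below it in 6 of 8 B and T cell, 2 of 10 stellate cell and 1 of 13 macrophage markers. The part of macrophage number or state in the values of Orm1, Fcna, Il1b or Cd14 was not tested.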

How the data were processed

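Per the submitters' processing notes, the authors used RMA and Affymetrix Expression Console 1.1.2, and the deposited table holds log2 expression for 29215 probes in each rat. The log2 scale was read from the values, and the sources used here give no genome build. GEO's platform annotation gives 1 symbol to 15310 probes, several to 323 and none to 13582. The brightest probe stood for the 527 genes that have several. Groups came from the sample titles. limma 3.58.1 in R 4.3.3 (lmFit and eBayes, two-sided, no covariate, no filter on dim genes) compared the groups over 14506 genes with Benjamini-Hochberg adjustment at 0.05, and the test was checked on simulated data. The exact permutation test covered all 3432 assignments of 7 of 14 arrays. It called 224 genes, exactly those without overlap between groups, so a call kept or lost in it restates whether the groups overlapped. RefSeq promoters of GRCr8 matched 31 of the 36 genes by gene identifier. A2m, C9, Hp, Lbp and Serpina3c were not among them.

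The genes and all lists were chosen with earlier results of these data known. By the naming rule, the value of every rat is given for genes of the list that passed, and the lowest, median and highest rat for the gene with the smallest p in each functional group and for A2m, Lcn2 and Crp. Hp and Serpina3n, given likewise, were chosen after their values were seen. Of the wider lists, up to 6 genes that passed are named, or the one with the smallest p, and of marker lists up to 3. The fit was repeated after a further quantile normalization or centring of arrays on their medians, on genes with a mean of 6 or more or no dimmer than the median gene, with probes of a gene averaged, with every probe tested, with a robust variance trend, with array weights, by the exact permutation test, at an adjusted p of 0.1, with the rat number as a block, and without each array. A fit without the 2 arrays of lowest weight was chosen after seeing the data. Python 3.11.15, pandas 2.3.3 and matplotlib 3.10.9 made the tables and figures.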

Additional observations from a re-analysis of the deposited data

Results flagged for a closer look

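In 7 of 72 groups of 7 rats, the highest or lowest rat stood apart from the other 6 by more than 0.568 of the group's range (Dixon's limit at 95%). About 1 in 20 groups would pass that limit by chance. The 72 groups are 36 genes read in the same 14 rats and are not independent, so the 7 cannot be judged against that share. Extract rat 7 was the high rat of its group for Stat3 (10.09, next 9.64), for C8a (11.97, next 11.74) and for Fgb (12.31, next 12.25). Extract rat 1 was the low rat for Serpina3c (12.56, next 12.68) and for Fgg (12.92, next 13.01). Control rat 2 was the high rat for C4bpa (12.55, next 12.32), and control rat 1 the low rat for C8a (11.37, next 11.71). Of these genes only Serpina3c passed the test between groups, and its low extract rat makes the difference smaller.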

How the results depend on the processing

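Over the 26 alternatives, Serpina3l and Serpina3c kept a positive fold and lost their call under 1 of them. The rat number as a replicate block gave 0 genes of the list higher (adjusted p = 0.061 for Serpina3l and 0.095 for Serpina3c) and 0 lower (0.086 for Orm1). The sample labels do not say whether rats of equal number shared anything besides the number, and this was not settled here. Same-numbered rats correlated between -0.46 and 0.28 in their deviations from the group means, over 0.1 in 4 of 7 pairs. Among 7 extract rats, 2 correlated best with the control rat of their own number. The block called 364 genes in place of 457. An adjusted p of 0.1 called 719 genes, 428 higher and 291 lower. It called 2 of the list lower, and 5 higher and 8 lower in the wider lists. The exact permutation test, which cannot give a p below 0.00058, called 224 genes, 0 of the list lower, and 1 higher and 2 lower in the wider lists. Array weights called 694 genes, 262 of them lower, and 3 of the list lower (Orm1, Hp and A2m). Repeated quantile normalization, median centring and the test of every probe each left 1 gene higher in the wider lists, Klkb1 keeping its call in all 26 alternatives. The first 2 of these each let 1 pair of genes pass in the co-variation. Leaving out 1 array gave 326 to 621 genes called in all, 0 to 2 of the list lower (0 without extract rat 2, extract rat 3 or control rat 3, and 2 without extract rat 7), 1 to 3 higher in the wider lists, and 0 to 2 pairs (2 without control rat 3). Without control rat 1, 53.0% of calls were higher, against 63.5% with it. The median fold of the list ran between -0.04 and 0.01.

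Some genes near 0 changed sign, and none of these folds passed. Repeated quantile normalization gave 0.025 for Lcn2 and 0.011 for Fga, and median centring gave 0.00599 for Lcn2 and 0.00492 for Fga. Array weights gave -0.020 for Serpina3n, -0.0097 for C9 and -0.00071 for Fgb, and leaving out the 2 arrays of lowest weight gave -0.0031 for Serpina3n. Leaving out 1 array gave folds between -0.13 and 0.28 for Lcn2, -0.034 and 0.018 for Fga, -0.010 and 0.018 for Crp, -0.016 and 0.053 for Serpina3n, -0.0010 and 0.068 for C9, -0.033 and 0.047 for F10, -0.19 and 0.0068 for Stat3, and -0.094 and 0.00066 for C8a. The cause of these changes was not tested. A2m was not tested under the filters on dim genes, which left 35 of the 36 genes. The markers Marco and Itgam were not tested under those filters either.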

Other observations

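Several genes of the wider lists and marker lists above were looked at singly after their values had been seen, and none passed in limma's test. Their values are already part of the counts given for those lists. Serpina3m, another gene of the rat Serpina3 family, had a log2 fold of 0.19 ± 0.092 SE (adjusted p = 0.363). Of genes that respond to growth hormone, Igf1 had a log2 fold of -0.06 (adjusted p = 0.715), Socs2 one of -0.32 (adjusted p = 0.519) and Cish one of -0.09 (adjusted p = 0.933). Of the IL-6 pathway, Il6 had a log2 fold of 0.12, Il6r one of -0.06, Il6st one of 0.07, Cebpb one of 0.05 and Cebpd one of -0.10. Among other secreted liver proteins, Pzp had a log2 fold of 0.02, Alb one of -0.04, Apcs one of -0.09 and Hamp one of 0.16. Osmr, the receptor subunit for oncostatin M, an IL-6 type cytokine, had 9.73 ± 0.26 in extract rats and 9.23 ± 0.36 in control rats (SD, n = 7 each), with 5 of 7 extract rats above every control rat (log2 fold 0.50, limma adjusted p = 0.0786). Fgl1, an acute phase protein of the fibrinogen family, had 10.73 ± 0.50 in extract rats and 11.28 ± 0.23 in control rats (SD, n = 7 each), with 5 of 7 extract rats below every control rat (log2 fold -0.55, limma adjusted p = 0.119). The genes of the 3 C1q chains, which start the classical complement pathway and are expressed by macrophages, had log2 folds of -0.29 for C1qa, -0.35 for C1qb and -0.19 for C1qc (limma adjusted p = 0.0575, 0.0848 and 0.27). Clec4f, a lectin of Kupffer cells, had a log2 fold of -0.26, and every extract rat lay below every control rat (limma adjusted p = 0.0525).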
